A study of Mus musculus with 6 samples.

Results

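In all, 10 surface genes through which epithelial cells meet leukocytes were followed in sorted horizontal basal cells of the mouse nose. They encode costimulation and checkpoint ligands (Cd47, Cd274, Cd276, Cd80, Cd86 and Icosl) and adhesion molecules (Icam1, Vcam1, Alcam and Cd44). The rows were those of the deposited expression table whose gene field names a listed symbol, which gave 11 of 44519 rows for the 10 genes, because Cd276 has 2. The TNF group held 3 libraries (replicates 1, 3 and 4) of GFP-positive cells from the olfactory neuroepithelium of Krt17-EGFP; Cyp2g1-rtTA; TRE-TNF mice, labelled as given doxycycline for 6 weeks. The control group held 3 libraries (replicates 1, 2 and 4) of GFP-positive cells from Krt17-EGFP mice, labelled as without doxycycline. Both groups carry the Krt17-EGFP reporter used for the sort. Cyp2g1 is a gene of sustentacular cells, so in the TNF mice the tumor necrosis factor (TNF) transgene is driven by a promoter of the supporting cells and not of the basal cells. The transgenes and doxycycline differ together between the groups and cannot be told apart. The sources used here give no strain background, age, sex or number of animals behind a library. Every p-value therefore reflects only how these 6 libraries vary, which may be technical. Values of single libraries stand in the order of replicates 1, 3 and 4 for TNF and of replicates 1, 2 and 4 for controls.

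Horizontal basal cells are keratin-positive reserve stem cells that lie on the basal lamina of the olfactory epithelium, and ICAM1 is an established surface marker of them. T cells need a costimulation signal through CD28 or ICOS besides antigen, given by CD80, CD86 and ICOS ligand, while the ligand encoded by Cd274 restrains T cells through PDCD1. CD47 on a cell's surface binds SIRPA on phagocytes and restrains engulfment. ICAM1 and VCAM1 hold leukocytes through the integrins encoded by Itgal with Itgb2 and Itga4 with Itgb1, and both genes are textbook targets of NF-kB in cells exposed to TNF.

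Expression was deposited as FPKM, fragments scaled to transcript length and to the total of the library, which allows levels of different genes to be compared per length. The absolute read depth is unknown. Read from low values, 1 fragment was worth 0.877 to 1.08 times its value in control replicate 1. Tnf itself reached 142, 91.9 and 102 FPKM in TNF libraries and 7.63, 28.0 and 7.58 FPKM in control libraries, a log2 change of 3.11 ± 0.49 (SE, limma, adjusted p = 0.00346). The sources used here do not say whether transgene reads enter that row. Trp63 and Krt5, defining genes of horizontal basal cells, were detected in all 6 libraries, but the controls also held neuron RNA. Summed mature olfactory neuron markers (10 rows) were at 36.8 to 1150 FPKM in TNF libraries and 3386 to 6657 FPKM in control libraries, and the horizontal basal cell list (10 rows) summed to 4465 to 7169 FPKM in TNF libraries and 704 to 2881 FPKM in control libraries. Immature neuron markers (9 rows) summed to 134 to 178 FPKM in TNF libraries and 1824 to 3477 FPKM in control libraries, sustentacular and gland markers (8 rows) to 1224 to 1717 and 1406 to 2764 FPKM, and ensheathing glia markers (6 rows) to 11.2 to 33.2 and 23.98 to 306 FPKM. A pair of libraries stood apart from the rest of their groups. TNF replicate 1 had few stromal transcripts and the most mature neuron RNA of its group, with those markers summing to 1150, 46.4 and 36.8 FPKM in the TNF libraries, and control replicate 4 had the lowest sum of horizontal basal cell markers and the highest sum of macrophage markers. In bulk RNA, fewer cells of a type and less RNA per cell cannot be told apart. Of 15037 rows tested, 1635 rose and 4083 fell in TNF libraries (limma, adjusted p below 0.05). Without TNF replicate 3, TNF replicate 4 or control replicate 1, 795, 880 and 866 rows rose, and without control replicate 1, 2 or 4, 1609, 2156 and 2192 rows fell. The median log2 change over all rows was −0.22.

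The 10 genes spanned a wide range of levels. Cd47 had the highest mean in both groups, 655 ± 69.3 FPKM in TNF libraries and 238 ± 21.4 FPKM in control libraries (SD, n = 3 each), above 99.2% and 96.8% of the tested rows. Icam1 and Vcam1 came next. In TNF libraries these 2 had means of 362 ± 46.2 and 361 ± 39.4 FPKM with overlapping ranges, and both lay above Cd274, Cd44 and Alcam at 22.5, 22.2 and 20.7 FPKM, a trio whose ranges overlapped. Cd276 and Icosl followed with overlapping ranges, and Cd86 and Cd80 were below 1 FPKM in every TNF library. In control libraries the ranges of Cd47, Icam1, Vcam1, Icosl and Alcam overlapped each with the next, as did those of Cd274, Cd44, Cd86 and Cd276, while Cd80 was lowest at 0.896 ± 0.411 FPKM.

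Of 9 members that could be tested, Cd47, Cd44 and Cd276 rose and Cd86 fell in TNF libraries (limma, adjusted p below 0.05, n = 3 per group), against a background of 10.9% of all rows higher, 27.2% lower and 38.0% in either direction. The other 5 (Cd274, Icosl, Icam1, Vcam1 and Alcam) did not pass. Cd80 lay under the filter of at least 1 FPKM in at least 3 libraries. Groups did not overlap for 6 members, with Cd47, Cd276, Vcam1 and Cd44 higher and Cd80 and Cd86 lower in TNF libraries. Over all rows tested, groups did not overlap at 16.8% with TNF higher, 36.2% with TNF lower and 53.0% in all. Cd86 passed the filter only through the control libraries, where it was high, so it had to differ and its call carries little weight.

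**Figure D1:**
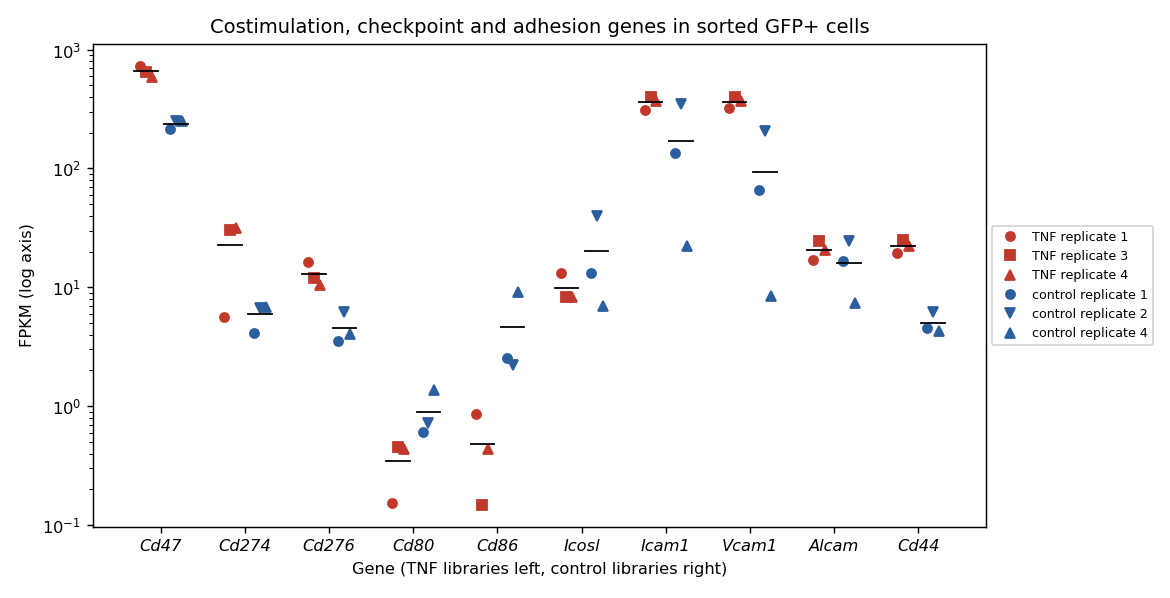
FPKM on a log axis for the 10 genes in each library, TNF libraries in red at the left and control libraries in blue at the right of each gene, with a black line at each group mean (n = 3 per group). Cd47, Cd276 and Cd44 show narrow groups that do not overlap, whereas Icam1 and Vcam1 spread 15.7-fold and 24.1-fold among the controls.

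Promoters of the 3 genes that rose and of Icam1, taken from RefSeq (GRCm38.p6), are shown as the sequence context of the transcripts measured. RefSeq promoter windows of 300 bases, 250 before to 50 after a start, were matched for 8 of the 10 genes, all but Vcam1 and Cd86. They were searched on both strands for the NF-kB (kB) consensus (GGG, a purine, any 2 bases, 2 pyrimidines, CC). The other patterns were the interferon element core (GAAA, any 2 bases, GAAA), the STAT element TTCNNNGAA and the TATA box TATAAA. A site that departs from a pattern at 1 base is not found, so a window without a match may still hold one. Capitals mark matches.
Cd47, chr16:49855404-49855703, plus strand: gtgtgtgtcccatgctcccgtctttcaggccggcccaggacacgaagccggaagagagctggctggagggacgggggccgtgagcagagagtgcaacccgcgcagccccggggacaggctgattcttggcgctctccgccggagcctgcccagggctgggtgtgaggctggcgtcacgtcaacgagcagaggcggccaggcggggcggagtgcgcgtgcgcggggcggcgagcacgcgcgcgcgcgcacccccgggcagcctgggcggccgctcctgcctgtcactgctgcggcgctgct
Cd44, chr2:102901616-102901915, minus strand: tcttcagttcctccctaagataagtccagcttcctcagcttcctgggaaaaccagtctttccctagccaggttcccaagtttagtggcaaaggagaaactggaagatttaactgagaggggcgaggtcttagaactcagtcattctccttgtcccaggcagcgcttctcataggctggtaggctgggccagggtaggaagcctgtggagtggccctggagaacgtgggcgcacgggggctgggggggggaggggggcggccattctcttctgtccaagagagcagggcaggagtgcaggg
Cd276, chr9:58554984-58555283, minus strand: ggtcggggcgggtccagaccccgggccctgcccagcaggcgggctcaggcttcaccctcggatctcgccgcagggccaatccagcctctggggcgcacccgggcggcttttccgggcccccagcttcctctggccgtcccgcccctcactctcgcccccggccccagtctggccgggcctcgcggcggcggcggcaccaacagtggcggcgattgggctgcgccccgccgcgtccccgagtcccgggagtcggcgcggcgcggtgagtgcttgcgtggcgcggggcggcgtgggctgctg
Icam1, chr9:21015690-21015989, plus strand: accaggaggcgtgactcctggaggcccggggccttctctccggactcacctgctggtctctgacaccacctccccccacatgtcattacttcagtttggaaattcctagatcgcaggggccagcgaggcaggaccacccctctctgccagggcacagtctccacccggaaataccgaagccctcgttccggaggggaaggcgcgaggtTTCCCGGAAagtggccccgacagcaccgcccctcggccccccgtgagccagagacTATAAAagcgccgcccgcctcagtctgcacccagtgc
The Icam1 window held TTCCCGGAA at −42 to −34 from the start, a match to TTCNNNGAA, a pattern that reads the same on both strands and is in 8.29% of 32817 windows. It also held TATAAA at 14 to 19 after the start (in 13.6% of windows), and the 2 did not overlap. Windows of Cd47, Cd44, Cd276, Cd274 and Alcam held no match to any of the motifs. Icosl held 1 match to the kB consensus (in 8.46% of windows), Cd80 held TATAAA on the reverse strand, and no matched member held the interferon element core, found in 3.43%. A match is a description of letters and was not tested as a binding site.

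Among the checkpoint ligands, Cd47 rose and had narrow groups. Its level was 728, 645 and 591 FPKM in TNF libraries, against 214, 250.4 and 251 FPKM in control libraries. No TNF library came near the controls, and the highest value was only 1.23 times the lowest in the TNF group and 1.17 times in the controls. The log2 change was 1.45 ± 0.19 (SE, limma, adjusted p = 0.00168). The row lies at chromosome 16, 49855618 to 49915010 (mm10), and no exon of another gene overlaps Cd47 in GENCODE M21. Sirpa, which encodes the phagocyte receptor of CD47, was at 13.1, 17.0 and 14.8 FPKM in TNF libraries and 11.7, 14.7 and 16.1 FPKM in control libraries, with a log2 change of 0.08 (95% interval −0.40 to 0.55).

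Cd276, a B7 family member with mainly inhibitory effects on T cells, also rose. It was at 16.3, 12.0 and 10.4 FPKM in TNF libraries, against 3.51, 6.19 and 4.08 FPKM in control libraries. The groups were separate, with TNF replicate 1 highest and control replicate 1 lowest. The log2 change was 1.32 ± 0.27 (SE, limma, adjusted p = 0.00917). This row spans chromosome 9, 58524300 to 58555829. A second Cd276 row at the same locus was listed at 0 in 5 libraries and at 0.179 FPKM in control replicate 2. Exons of Cd276 overlap Gm10657 on the other strand, whose own row was at 3.77 to 5.46 FPKM in TNF libraries and 2.27 to 4.49 FPKM in control libraries, so the Cd276 level is uncertain where strand was not kept.

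Cd274, which encodes the main ligand of PDCD1, split the TNF libraries. Its level was 5.60, 30.5 and 31.6 FPKM in TNF libraries, against 4.15, 6.72 and 6.88 FPKM in control libraries. TNF replicate 1 lay inside the control range and the other TNF libraries lay far above it. The log2 change of 1.48 ± 0.63 (SE, 95% interval −0.02 to 2.98) did not pass (limma, adjusted p = 0.109), while without TNF replicate 1 it was 2.24 and passed (limma, adjusted p = 0.00156). The latter fit omits the TNF library that lay inside the control range, so the pass carries little weight. The same library differed from the other TNF libraries in several marker lists. Endothelial markers (10 rows) summed to 4.21 FPKM in TNF replicate 1 and to 98.6 and 153 FPKM in TNF replicates 3 and 4, against 33.8 to 43.2 FPKM in control libraries. Fibroblast and stroma markers (10 rows) summed to 41.9, 1135 and 1619 FPKM in TNF replicates 1, 3 and 4, against 145 to 530 FPKM in control libraries. Kdr, Dpt and Thy1 were listed at 0 in TNF replicate 1, where 9 endothelial and 7 fibroblast rows were below 1 FPKM, and no row of either list was separate between the groups. Mature neuron markers split these libraries the other way, at 1150 FPKM in TNF replicate 1 and 46.4 and 36.8 FPKM in TNF replicates 3 and 4, against 3386 to 6657 FPKM in control libraries. Krt5 was at 1011, 402 and 425 FPKM in TNF libraries and 344, 329 and 151 FPKM in control libraries. The part of these cells in the Cd274 result was not tested. The row lies at chromosome 19, 29348599 to 29388095, a locus it shares with Plgrkt in the table, and its exons overlap those of AC119228.1 on the other strand.

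The costimulation ligands of CD28 were below 1 FPKM in every TNF library. Cd80 was at 0.153, 0.454 and 0.440 FPKM in TNF libraries, against 0.607, 0.716 and 1.37 FPKM in control libraries. Cd86 was at 0.864, 0.148 and 0.440 FPKM in TNF libraries, against 2.52, 2.23 and 9.11 FPKM in control libraries. All TNF values lay below all control values for both genes, and control replicate 4 was highest for both. Cd86 fell by 1.74 ± 0.46 on the log2 scale (SE, limma, adjusted p = 0.0254), a call lost without TNF replicate 3 (adjusted p = 0.0868) or TNF replicate 4 (adjusted p = 0.0689), while without any 1 control library the gene left the filter. For Cd80 the difference in mean log2(FPKM + 1) was −0.48, with no test. The rows lie at chromosome 16, 38457472 to 38486933 for Cd80 and 36603869 to 36666081 for Cd86.

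Markers of the cells that usually carry these ligands moved the same way. Dendritic cell and macrophage markers (16 rows) summed to 33.7 to 58.7 FPKM in TNF libraries and to 150, 160 and 987 FPKM in control replicates 1, 2 and 4, with 13 rows lower in all TNF than in all control libraries and 0 higher. Among them C1qb, a complement component made by macrophages, averaged 6.46 ± 3.23 FPKM in TNF libraries (SD, n = 3) and was at 43.1, 41.0 and 348 FPKM in control libraries. B cell markers (6 rows) summed to 3.05 to 3.80 FPKM in TNF libraries and 21.99 to 33.9 FPKM in control libraries, with 5 rows lower. T and NK cell markers (9 rows) summed to 2.29 to 4.86 FPKM in TNF libraries and 17.7 to 89.3 FPKM in control libraries, with 6 rows lower. Over all rows tested, 36.2% were lower in all TNF than in all control libraries. The counts of lower rows in these lists include rows under the filter, which that share does not. Only 10 dendritic cell and macrophage, 4 B cell and 4 T and NK cell rows passed the filter. Of these, 9, 4 and 4 were lower in all TNF than in all control libraries. In each list 3 of the rows that passed were below 1 FPKM in every TNF library, so those had to differ. At 0 in the table were Xcr1 and Clec9a in TNF replicate 1, Cd209a in TNF replicates 3 and 4, Pax5 in TNF replicates 1 and 3, Ncr1 in the TNF libraries and control replicate 2, and Clec9a in control replicate 1. The part of these cells in the Cd80 and Cd86 values was not tested.

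Icosl, the ligand of the T cell receptor ICOS, did not separate the groups. It was at 13.3, 8.31 and 8.24 FPKM in TNF libraries, against 13.2, 40.1 and 6.98 FPKM in control libraries. Control replicate 2 alone stood high, and the TNF values lay within the control range. The log2 change was −0.64 ± 0.58 (SE, 95% interval −2.02 to 0.74, limma, adjusted p = 0.423), and it was 0.01 without control replicate 2. The row lies at chromosome 10, 78069360 to 78079525.

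**Figure D2:**
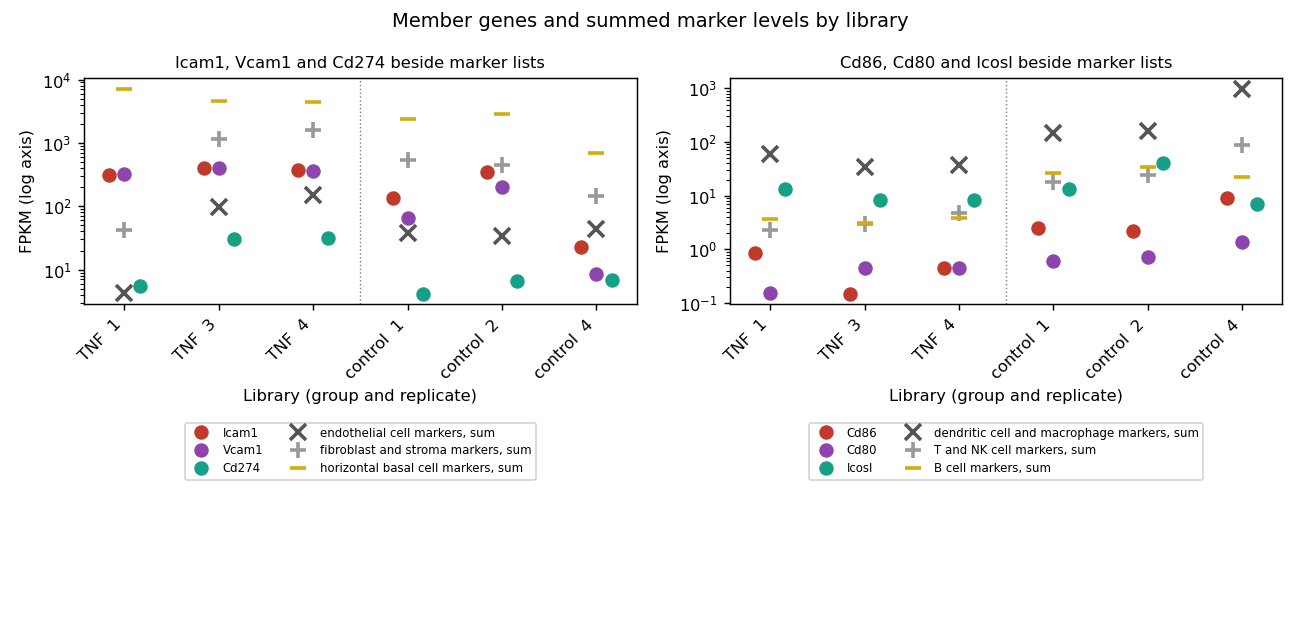
FPKM on a log axis by library, TNF libraries left of the dotted line and control libraries right of it, for Icam1, Vcam1 and Cd274 (left panel) and Cd86, Cd80 and Icosl (right panel), beside the summed FPKM of marker lists. In TNF replicate 1 endothelial markers sum to 4.21 FPKM and Cd274 is at 5.60 FPKM while Icam1 and Vcam1 are at 311 and 319.8 FPKM, and in control replicate 4 macrophage markers sum to 987 FPKM.

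The integrin ligands Icam1 and Vcam1 were uniformly high in TNF libraries and uneven in controls. Icam1 was at 311, 401 and 372 FPKM in TNF libraries, against 135, 351 and 22.4 FPKM in control libraries. Vcam1 was at 319.8, 398 and 366 FPKM in TNF libraries, against 65.3, 205 and 8.53 FPKM in control libraries. The highest TNF value was 1.29 times the lowest for Icam1 and 1.25 times for Vcam1, whereas among controls these ratios were 15.7 and 24.1. Icam1 in control replicate 2 lay above TNF replicate 1, so its groups overlapped, while those of Vcam1 did not.

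Neither gene passed the test with all 6 libraries. For Icam1 the log2 change was 1.80 ± 0.90 (SE, 95% interval −0.35 to 3.94, limma, adjusted p = 0.163), and for Vcam1 it was 2.83 ± 1.01 (SE, 95% interval 0.42 to 5.24, limma, adjusted p = 0.0668). Without control replicate 2 both passed, at 2.68 for Icam1 (limma, adjusted p = 0.0458) and 3.84 for Vcam1 (limma, adjusted p = 0.0216). That fit omits the highest control of both genes, so their passing carries little weight. Leaving out control replicate 4 instead lowered both, and neither passed. Icam1 was then at 0.72 (limma, adjusted p = 0.265) and Vcam1 at 1.63 (limma, adjusted p = 0.0626), so the size of both changes rested largely on that library. Control replicate 4, the lowest control for both genes, was also lowest among the controls in 9 of 10 horizontal basal cell rows. Between control replicates 1 and 2, Icam1 and Vcam1 were higher in replicate 2, and these markers were mixed. Lower in replicate 2 were Krt5 (344 and 329 FPKM), Trp63 (86.1 and 71.3 FPKM), Krt15 and Dst. Higher in replicate 2 were the merged row of Krt14 and Krt17 (1768 and 2265 FPKM), Col17a1 (35.0 and 55.7 FPKM), Egfr (37.8 and 61.4 FPKM), Itgb4, Itga6 and Cav1. The list summed to 2372 and 2881 FPKM in these 2 libraries. The part of basal cell content was not tested. In TNF replicate 1, where the endothelial gene Pecam1 was at 0.512 FPKM, Icam1 and Vcam1 were at 311 and 319.8 FPKM. The part of endothelial cells was not tested. The rows lie at chromosome 9, 21015960 to 21028797 for Icam1 and chromosome 3, 116109949 to 116141016 for Vcam1, and exons of each overlap an antisense gene (Gm47079 and Gm43109).

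The balance of these 2 ligands did not overlap between the groups. The FPKM ratio of Icam1 to Vcam1 was 0.972, 1.01 and 1.02 in TNF libraries, against 2.06, 1.71 and 2.63 in control libraries. TNF libraries thus held the 2 transcripts at nearly equal levels per length, while every control library held more Icam1. An FPKM ratio within a library does not depend on how libraries are scaled. The tested ratio, of FPKM + 1, does depend on it at low levels. On the log2(FPKM + 1) scale the difference was −1.03, with p = 0.10 in an exact two-sided permutation test, the smallest p that 3 against 3 allows. The ratio of Cd274 to Cd276 was 0.343, 2.53 and 3.03 in TNF libraries and 1.18, 1.09 and 1.69 in control libraries, so the TNF libraries fell on both sides of the controls (difference 0.15, exact permutation p = 1). The ratio of Cd80 to Cd86 was 0.177, 3.06 and 0.998 in TNF libraries and 0.241, 0.321 and 0.15 in control libraries, a difference of 1.26 on the log2(FPKM + 1) scale (exact permutation p = 0.10) between values that were all below 1 FPKM in the TNF group. With a pseudocount of 0.1 that difference was 1.76 (exact permutation p = 0.3), and after basal cell scaling it was 1.48. The Cd80 to Cd86 FPKM ratio of TNF replicate 1 lay inside the control range, so the smaller p depended on the pseudocount. Adjusted over the 3 ratios, the exact permutation p was 0.15 for Icam1 to Vcam1 and for Cd80 to Cd86, and 1 for Cd274 to Cd276.

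**Figure D3:**
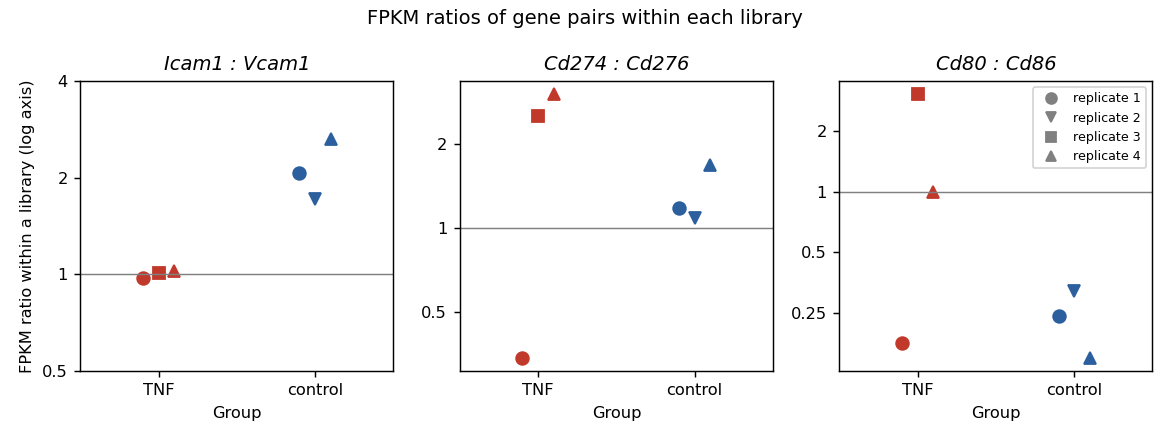
FPKM ratio of 3 gene pairs within each library on a log axis, TNF libraries in red at the left and control libraries in blue at the right, with a line at equal levels (n = 3 per group). Icam1 to Vcam1 lies between 0.972 and 1.02 in TNF libraries and between 1.71 and 2.63 in control libraries.

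Cd44, the hyaluronan receptor of epithelial and immune cells, rose. It was at 19.5, 24.8 and 22.4 FPKM in TNF libraries, against 4.59, 6.21 and 4.26 FPKM in control libraries. The groups were far apart, with TNF replicate 1 the lowest of the TNF libraries. The part of stromal cells was not tested. The log2 change was 1.96 ± 0.21 (SE, limma, adjusted p = 0.000925). The row lies at chromosome 2, 102811141 to 102901665, with no exon overlap, and it does not separate the splice forms for which Cd44 is known.

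Alcam, the ligand of the lymphocyte receptor CD6, did not separate the groups. It was at 17.0, 24.4 and 20.7 FPKM in TNF libraries, against 16.5, 24.6 and 7.32 FPKM in control libraries. Control replicates 1 and 4 lay below all TNF values and control replicate 2 above them. The log2 change was 0.47 ± 0.41 (SE, 95% interval −0.51 to 1.45, limma, adjusted p = 0.404), for a row at chromosome 16, 52248996 to 52454074.

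None of the 3 rises passed when libraries were scaled to the horizontal basal cell markers. That scaling divides each library by a factor from the 10 rows of the list, 1.43 to 1.79 in TNF libraries and 0.35 to 0.856 in control libraries, and it moved the median change of all rows to −1.39. The 10 rows did not move together. As deposited, 4 of them were called higher, against 10.9% of all rows, with log2 changes from −0.07 for Dst and 0.35 for Trp63 to 2.11 for Itgb4. The result of this scaling therefore depends on the choice of list. Under it Cd47 was at 0.14 (95% interval −0.94 to 1.21), Cd276 at 0.15 (−0.91 to 1.22) and Cd44 at 0.76 (−0.28 to 1.80), and 0 members were called higher (limma, adjusted p = 0.814, 0.787 and 0.173). Vcam1 was at 1.55 (95% interval 0.07 to 3.03, limma, adjusted p = 0.0627) and Icam1 at 0.49 (−0.83 to 1.82, limma, adjusted p = 0.482). Icosl was called lower, at −1.84 (limma, adjusted p = 0.0115), as was Cd86 at −2.50, and Alcam turned to −0.76 without passing. Cd47, Cd276 and Cd44 were thus higher relative to the library total and did not pass relative to basal cell marker RNA, where the intervals still reach 1.21, 1.22 and 1.80. Median-of-ratios scaling kept the direction of each tested member and the calls of Cd47, Cd276, Cd44 and Cd86. Over all rows 2353 were then higher and 3120 lower. The same counts were 2188 and 3185 with upper-quartile scaling, 2735 and 2965 after quantile normalization, and 258 and 9300 with the basal cell list.

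**Figure D4:**
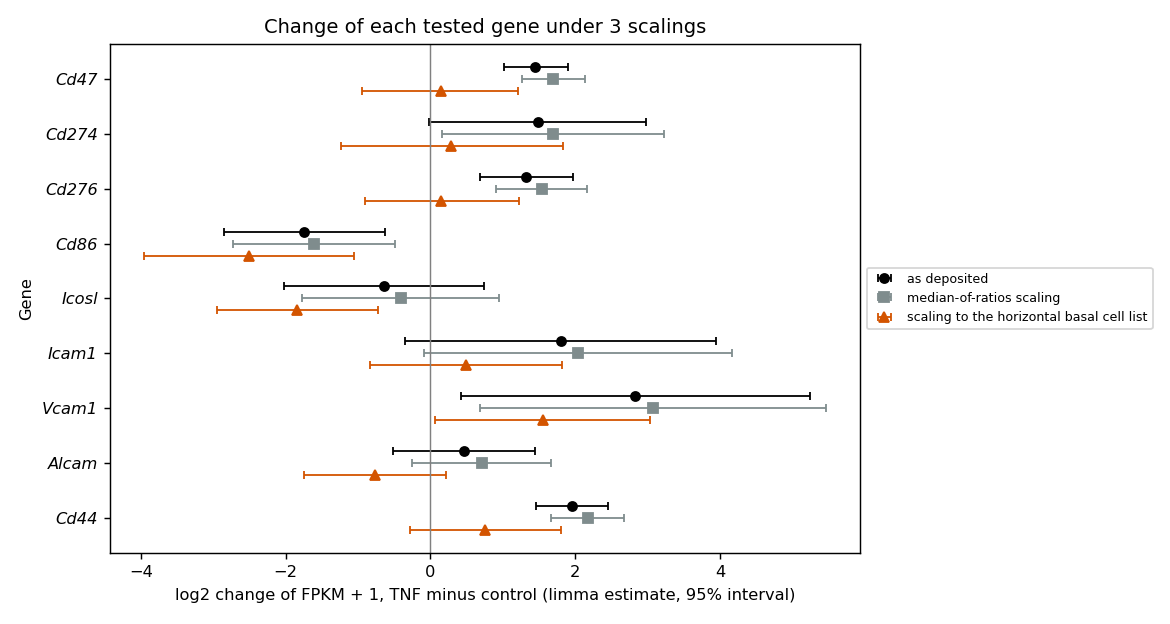
Log2 change of FPKM + 1, TNF minus control, with its 95% interval from limma, for the 9 tested genes under the deposited scaling (black circles), median-of-ratios scaling (grey squares) and scaling to the horizontal basal cell list (orange triangles). Cd47, Cd276 and Cd44 lie at 1.32 to 1.96 as deposited and at 0.14 to 0.76 under the last scaling, where their intervals include 0.

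Other genes of these pathways were read from 6 lists, each beside the median of −0.22 for all rows. Of all rows tested, 10.9% were called higher and 27.2% lower. Among other B7 family and checkpoint ligands, 13 of 18 were tested, 4 rose and 1 fell (limma, adjusted p below 0.05), with a median log2 change of 0.49. Lgals9, a galectin that binds HAVCR2 on T cells, was at 68.5, 115 and 111 FPKM in TNF libraries and 19.0, 29.5 and 42.7 FPKM in control libraries, a log2 change of 1.69 ± 0.34 (SE). H2-T23, whose class I product engages an inhibitory receptor of NK cells, rose by 3.10 ± 0.31. Pvr, a ligand of TIGIT and CD226, rose as well, and Vtcn1, an inhibitory B7 member, reached only 1.37 to 2.77 FPKM in TNF libraries against 0.383 to 0.933 FPKM in control libraries. Vtcn1 passed the filter only through the TNF libraries, so it had to differ, and without any 1 TNF library it left the filter. Cd48, a leukocyte adhesion and signalling protein, fell by 2.06 ± 0.53. Cd48 was not called without TNF replicate 3 or 4 or control replicate 2. The list counted 2 rises without TNF replicate 3 or without control replicate 1, 2 or 4, and 1 (H2-T23) under scaling to the basal cell list. It counted 6 without TNF replicate 1 and under median-of-ratios or upper-quartile scaling, and 8 after quantile normalization and without control replicate 4 and TNF replicate 1 together.

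Of 13 genes for receptors of costimulation and checkpoint ligands, 3 (Icos, Pdcd1 and Ctla4) passed the filter. All 3 did so only through the control libraries and had to differ, so their calls give no direction for the list. Icos was at 0.0823, 0.0128 and 0.320 FPKM in TNF libraries and 3.94, 9.31 and 11.4 FPKM in control libraries. Pdcd1, which encodes the receptor of the Cd274 product, was at 0.0456 to 0.0753 FPKM in TNF libraries and 1.76 to 6.29 FPKM in control libraries, and Ctla4 was at 0.0219 to 0.192 and 1.22 to 6.65 FPKM. Of 10 leukocyte integrins and related receptors, 6 were tested, 0 rose and 4 fell (Itgam, Itgal, Itgb7 and Cd2), with a median of −1.28. Itgam, Itgal and Cd2 were below 1 FPKM in every TNF library and passed the filter only through the controls, so 3 of the 4 calls had to differ and the count and median give no direction for the list. Itgal, a chain of the leukocyte receptor of ICAM1, was at 0.298 to 0.347 FPKM in TNF libraries and 1.18 to 4.73 FPKM in control libraries. Itga4, a chain of the VCAM1 receptor, stayed under the filter at 0.183 to 0.533 FPKM in TNF libraries and 0.746 to 1.23 FPKM in control libraries, while Itgb1, which epithelial cells also make, was at 201 to 311 and 94.8 to 191 FPKM and did not pass (limma, adjusted p = 0.0782), though it did without TNF replicate 1 and under median-of-ratios scaling. T and NK cell markers are given above, and their part was not tested. Without TNF replicate 3, TNF replicate 4, control replicate 1 or control replicate 4, 1 of these integrin genes fell, and without control replicate 2, 0 did. Without any 1 control library Itgam, Itgal, Cd2, Icos, Pdcd1 and Ctla4 left the filter, so none of them could be called.

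Among other adhesion molecules, 16 of 20 were tested, 2 rose and 1 fell, with a median of 0.67. The share that rose was near the 10.9% of all rows called higher, and 27.2% of all rows were called lower. Cdh1, the epithelial cadherin that also binds an integrin of intraepithelial lymphocytes, was at 128, 177 and 146 FPKM in TNF libraries and 56.0, 71.9 and 26.6 FPKM in control libraries (log2 change 1.62 ± 0.36, SE). F11r, a junctional adhesion molecule, rose by 0.60 ± 0.17, and Selplg, the selectin ligand of leukocytes, fell by 2.62 ± 0.65. Selplg was not called without TNF replicate 3 or 4. Without TNF replicate 1 the list counted 10 rises, without TNF replicate 3 it counted 0, and without TNF replicate 4 or any 1 control it counted 1. Scaled to the basal cell list, 0 rose and 3 fell.

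Partners of CD47 and CD44 and the proteins that modify or shed the members showed few calls. In both lists the share that rose was near the 10.9% of all rows called higher. The share that fell was under the 27.2% of all rows called lower. Of 9 tested partners of 16 listed, only Cd74 rose, with a median of 0.16. Cd74, the invariant chain that pairs with CD44 as a receptor, was at 6440.5, 5457 and 4809.7 FPKM in TNF libraries and 452, 1032 and 3342 FPKM in control libraries (limma, adjusted p = 0.0484), a call lost without any 1 TNF library, without control replicate 1 or 2, and with no filter. Has2, a hyaluronan synthase, was at 1.66, 16.1 and 18.7 FPKM in TNF libraries and 4.62, 5.18 and 0.596 FPKM in control libraries and did not pass, but without TNF replicate 1 Has2 and Tnfaip6 did. That fit omits the TNF library where both were lowest, so their passing carries little weight. All 11 modifiers and sheddases were tested, of which Mmp14, a membrane protease that cleaves CD44, rose by 1.67 ± 0.21 and Cmtm4, a stabiliser of the Cd274 product, fell by 1.27 ± 0.22. Cmtm4 passed the filter only through the control libraries. Its relative Cmtm6 was at 45.9 to 61.0 FPKM in TNF libraries and 36.7 to 51.1 FPKM in control libraries (log2 change 0.37, 95% interval −0.09 to 0.84), and Qpctl, which modifies CD47, was at −0.08 (95% interval −0.67 to 0.51). The number of higher genes in this list depended on the scaling, with 8 under median-of-ratios, 6 under upper-quartile and 0 under basal cell scaling. It was 4 without TNF replicate 1 and 2 without control replicate 2, and Cmtm4 left the filter without any 1 control.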

How the data were processed

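GFP-positive cells were sorted into a lysis reagent, total RNA was column-purified, and samples with a RIN above 7 were amplified from 5 ng with a SMARTer kit and made into Nextera libraries, per the labels' protocols. The submitters' processing notes name bcl2fastq, FastQC 0.10.1, TopHat2 2.1.1, Cuffdiff 2.2.1 and mm10, without roles or settings. The authors deposited 1 table of FPKM values, which its title calls raw counts. Fractions made up 99.98% of its values above 0, and count tests were not applied. The sources used here do not say how strand was handled. Starts in the table count from 0 and are printed from 1.

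Rows that reached 1 FPKM in 3 or more libraries entered limma 3.58.1 (R 4.3.3, with its intensity trend) as log2(FPKM + 1), that is with a pseudocount of 1, and with the 2 groups as the only term. P-values were adjusted by Benjamini-Hochberg over all 15037 rows, threshold 0.05. Fold changes on this scale understate those of low genes. The procedure was tested on simulated data. The members and the gene lists (6 pathway and 10 marker lists, 181 symbols, 3 unmatched and 5 matched by another name in RefSeq, GRCm38.p6) were chosen with earlier results of these data known. Named were all members, up to 4 called genes of each pathway list with the smallest p, genes whose protein binds a member, and Trp63, Krt5 and Tnf. Pvr, Has2, Tnfaip6, Cmtm6 and Qpctl were named after their values were seen. Most of the 2 highest genes of each marker list, and Rela, are left out for length. Alternatives were a pseudocount of 0.1, no filter, a filter of 5 FPKM, omission of libraries, a replicate block, 4 scalings, a robust variance and a threshold of 0.01.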

Additional observations from a re-analysis of the deposited data

How the results depend on the processing

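Cd47, Cd44 and Cd276 kept their direction under every alternative run, and kept their calls with each library left out. With 1 library omitted, the number of members called higher ran from 3 to 5 and lower from 0 to 1. It was 5 higher and 0 lower without control replicate 4 and TNF replicate 1 together. Cd274 was then at 2.34 and Vcam1 at 1.71, and both passed, with the TNF library of low Cd274 left out. Scaled to the basal cell list, 0 members were higher and 2 lower. With no filter, a filter of 5 FPKM, quantile normalization or a threshold of 0.01, 0 members were lower. Rows called higher ran from 795 to 2016 with 1 library omitted and numbered 2529 without both libraries, 2735 after quantile normalization, 258 after basal cell scaling and 787 at a threshold of 0.01. Rows called lower ran from 1609 to 4924, and numbered 2655 with a filter of 5 FPKM, 9300 after basal cell scaling and 2504 at 0.01. The Icosl change was 0.01 without control replicate 2, and Alcam was at −0.76 after basal cell scaling. Omitting 1 library, the log2 ratio differences ran from −1.17 to −0.90 for Icam1 to Vcam1, from 0.90 to 1.55 for Cd80 to Cd86 and from −0.37 to 1.08 for Cd274 to Cd276, which turned to −0.25 when TNF replicate 3 was left out and to −0.37 when TNF replicate 4 was. The cause of these shifts was not tested. The main fit does not take the replicate numbers as pairs, and only numbers 1 and 4 occur in both groups. Deviations of same-numbered libraries from their group means had correlations of −0.06 and −0.09. So few pairs cannot tell whether the numbers mark a pairing. With the replicate number as a block, the change of a row comes only from replicates 1 and 4 of each group. Control replicate 2, the highest control for Icam1 and Vcam1, and TNF replicate 3 add nothing to it. In that fit 744 rows were higher and 2246 lower, and Icosl was at 0.11. Icam1 and Vcam1 passed (limma, adjusted p = 0.0166 and 0.00415), and Cd47 and Cd276 did not (limma, adjusted p = 0.0539 and 0.0734). These results therefore do not adjust a comparison of all 6 libraries. Cd86 left the filter when any 1 control was omitted or at 5 FPKM, so no value exists there. Read depth is unknown, which limits statements on Cd80 and Cd86.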

Other observations

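Adhesion molecules of blood vessels separated the TNF libraries from each other. Madcam1, the addressin of mucosal vessels, reached 0.569, 32.3 and 40.6 FPKM in TNF libraries (replicates 1, 3 and 4), against 0.372, 1.75 and 0.557 FPKM in control libraries. Sele, the endothelial selectin, reached 0.0603, 11.9 and 16.6 FPKM in TNF libraries, against 0.953, 1.22 and 1.01 FPKM in control libraries. Selp, Cd34, Pecam1, Jam2, Mcam and Esam were likewise low in TNF replicate 1 and high in TNF replicates 3 and 4, and each of these 8 genes passed in the fit without TNF replicate 1 (limma, adjusted p below 0.05) and did not pass with all 6 libraries. These genes were chosen after their values were seen, and that fit omits the library where they were low, so their passing carries little weight. In the same fit 2016 of 14727 rows were called higher. Endothelial markers split the TNF libraries in the same way, and their part was not tested.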
